A study of Caenorhabditis elegans with 9 samples.

Results

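The genome of the nematode Caenorhabditis elegans encodes a set of secreted proteins related to Hedgehog and a set of membrane proteins related to its receptor Patched. RNA of these genes was followed across 3 RNA interference (RNAi) groups. Members were chosen by gene name alone: every gene called grd, grl, wrt, hog, qua or ptr followed by a number, which gave 83 of the 46748 genes in the count table. They comprised 16 groundhog genes (grd), 31 ground-like genes (grl), 10 warthog genes (wrt), 1 hog-only gene (hog-1), 1 quahog gene (qua-1) and 24 patched-related genes (ptr). All libraries came from whole N2 hermaphrodites, the wild-type strain, at an age of 5 days. Each of the 3 groups held 3 libraries. The control group carried the empty feeding vector L4440, another group an RNAi construct against B0395.3, a relative of carnitine O-acyltransferases, and the last a construct against H28O16.1. H28O16.1 is the sequence name of atp-1, which encodes subunit alpha of the catalytic F1 head of the ATP synthase in mitochondria. No genotype, strain or age differed between the groups, and separate cultures are not mentioned in the labels. A p-value here rests on the scatter among libraries within groups, estimated jointly over all 3 groups and with information shared between genes. That scatter may be technical.

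In flies and vertebrates, Hedgehog is a secreted signal that binds the membrane protein Patched and thereby releases Smoothened, a transducer that ends in Gli transcription factors. Caenorhabditis elegans has no recognisable Smoothened and no canonical Hedgehog, but its warthog, groundhog, quahog and hog-only proteins carry or are related to proteins that carry the Hog domain, the part of Hedgehog that processes itself. Ground-like proteins share a cysteine-rich domain with the groundhogs. Many of these secreted proteins are made by epidermal cells and glia and belong to the cuticle or to the transient matrix that precedes it. The patched-related proteins are multi-pass membrane proteins with a sterol-sensing domain, and several are needed for moulting, growth and the shaping of apical matrix.

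The libraries held 31236614 to 40990685 counts, of which the 83 members together took 0.0540% to 0.0660%. Levels are given as CPM (counts brought to a shared library size with TMM factors), or per length as RPKM. RPKM were rebuilt here per kilobase of exon from counts and library totals, without TMM factors. Differences between groups are therefore not the same on both scales. Mean ptr-2 was 356 CPM in L4440 and 338 CPM in B0395.3, but 119 and 118 RPKM. B0395.3 itself stood at 32.3 to 35.6 CPM in L4440 and at 12.5 to 16.5 CPM under its own RNAi, and atp-1 at 1863 to 2003 CPM in L4440 and at 66.8 to 75.4 CPM under H28O16.1 RNAi, so both targets were lower in their own groups. Each also read below L4440 in the other RNAi group. B0395.3 stood at 23.6 to 28.4 CPM in H28O16.1, and atp-1 at 1709 to 1809 CPM in B0395.3. Replicate 3 of H28O16.1 lay farthest from the other libraries of its own group, with a chi-square per degree of freedom of 16.6 and 12.1 against replicates 1 and 2 and of 5.48 between those 2. Of the 83 members, 53 passed the filter on low counts, and the tests ran on the 14622 genes that passed. A member is called higher or lower where the adjusted p of edgeR's quasi-likelihood F-test was under 0.05. Members that passed include ones that did so through the group where they were high, so the counts below describe 53 tested genes and not the whole set.

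The members differed in level by several orders of magnitude, and ptr-2 alone held most of their counts, which are not scaled by length. This patched-related gene, which has been described as acting in the germ line, reached 119 ± 2.1 RPKM in L4440 and held 58.7% of the summed member CPM there. Next in L4440 came grd-5 at 36.3 ± 3.48 RPKM, grd-3 at 14.2 ± 2.88 RPKM, wrt-5 at 11.3 ± 0.43 RPKM, ptr-21 at 11.1 ± 0.278 RPKM and ptr-24 at 10.3 ± 0.56 RPKM. Those 6 genes were the members at 10 RPKM or more, and 21 members stood at 1 RPKM or more: 11 ptr, 4 grd, 3 grl and 3 wrt genes. The ground-like family was led by grl-4 at 6.78 ± 0.305 RPKM and grl-10 at 3.69 ± 0.0554 RPKM, the warthogs after wrt-5 by wrt-10 at 5.13 ± 1.11 RPKM. hog-1, which encodes little beside a Hog domain, stood at 0.541 ± 0.114 RPKM, and qua-1, a Hog-domain protein needed for moulting, at 0.194 ± 0.0818 RPKM. All these levels are means ± SD over 3 libraries.

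**Figure D1:**
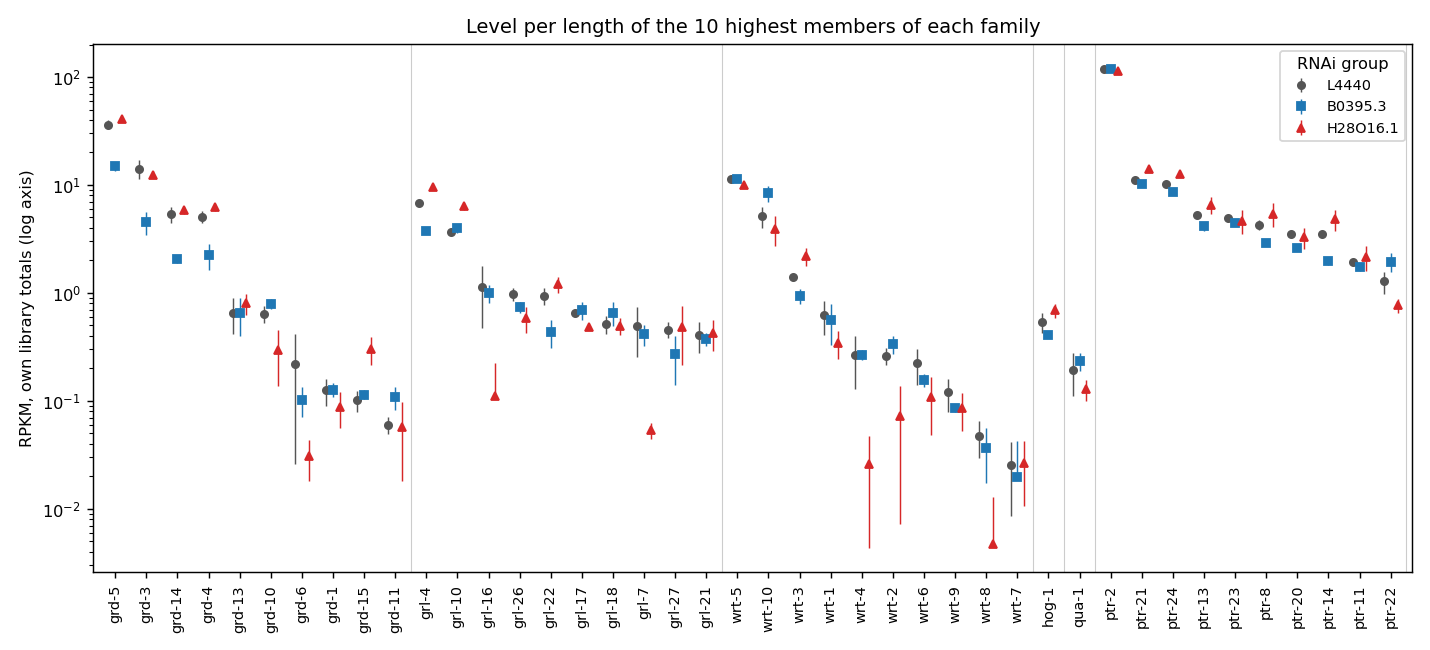
Mean RPKM (log axis) in the 3 RNAi groups for the 10 highest members of each family in L4440, with hog-1 and qua-1 as families of their own; bars are SD over 3 libraries, and the lower bar is left out where the SD reaches the mean. ptr-2 stands above all other members, and the 4 highest grd genes are lower in B0395.3 than in both other groups.

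The families differed in how many members were measurable. Of the patched-related genes, 23 of 24 passed the filter, against 13 of 31 ground-like, 8 of 16 groundhog and 7 of 10 warthog genes. None of the 30 members that did not pass was at 0 in all 9 libraries, and their highest count in any library was 33, for grd-6. The annotation (Ensembl 115, WBcel235) places the members on all 6 chromosomes, with 32 on V, 13 on IV, 13 on X, 9 on I, 9 on II and 7 on III. Chromosome V carries 19 of the 31 grl genes. Exon length had a median of 822 bases in the grl family, 1159 in grd, 1788 in wrt and 2976.5 in ptr, so a CPM of a ptr gene stands for fewer molecules than the same CPM of a grl gene.

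Across the 3 comparisons the secreted families and the patched-related family did not move as blocks. Under H28O16.1 RNAi, 8 members rose and 12 fell against L4440, which is 37.7% of the 53 tested, beside 57.6% of all genes tested. Under B0395.3 RNAi, 4 rose and 15 fell, or 35.8%, beside 27.2% of all genes tested. Of H28O16.1 against B0395.3, 19 members were higher and 14 lower, or 62.3%, beside 62.6% of all genes tested. By direction, 26.3% of all genes tested were higher and 31.2% lower in H28O16.1 than in L4440, 12.6% and 14.6% in B0395.3 than in L4440, and 30.5% and 32.1% in H28O16.1 than in B0395.3. With library totals alone as the scaling, the split of all genes called for B0395.3 against L4440 turned from 1836 higher and 2140 lower to 3160 higher and 1556 lower. Without replicate 3 of H28O16.1, 7 members were called higher and 19 lower than in L4440, and 17 higher and 17 lower than in B0395.3. Of the 14868 genes tested in that fit, 3922 were higher and 4722 lower than in L4440. Against B0395.3, 4541 of them were higher and 4800 lower. The median log2 fold change of the tested members was -0.011 for H28O16.1, -0.074 for B0395.3 and -0.035 between these groups, beside -0.0042, 0.0079 and -0.0022 over all genes tested. Since both comparisons with L4440 use the same control libraries, their values are set side by side below and joined only by the direct test of H28O16.1 against B0395.3. The libraries of the groups compared did not overlap for 22 members in the H28O16.1 comparison, 23 in the B0395.3 comparison and 32 in the direct comparison, or 41.5%, 43.4% and 60.4% of those tested, where 61.4%, 47.1% and 66.8% of all genes did not overlap.

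**Figure D2:**
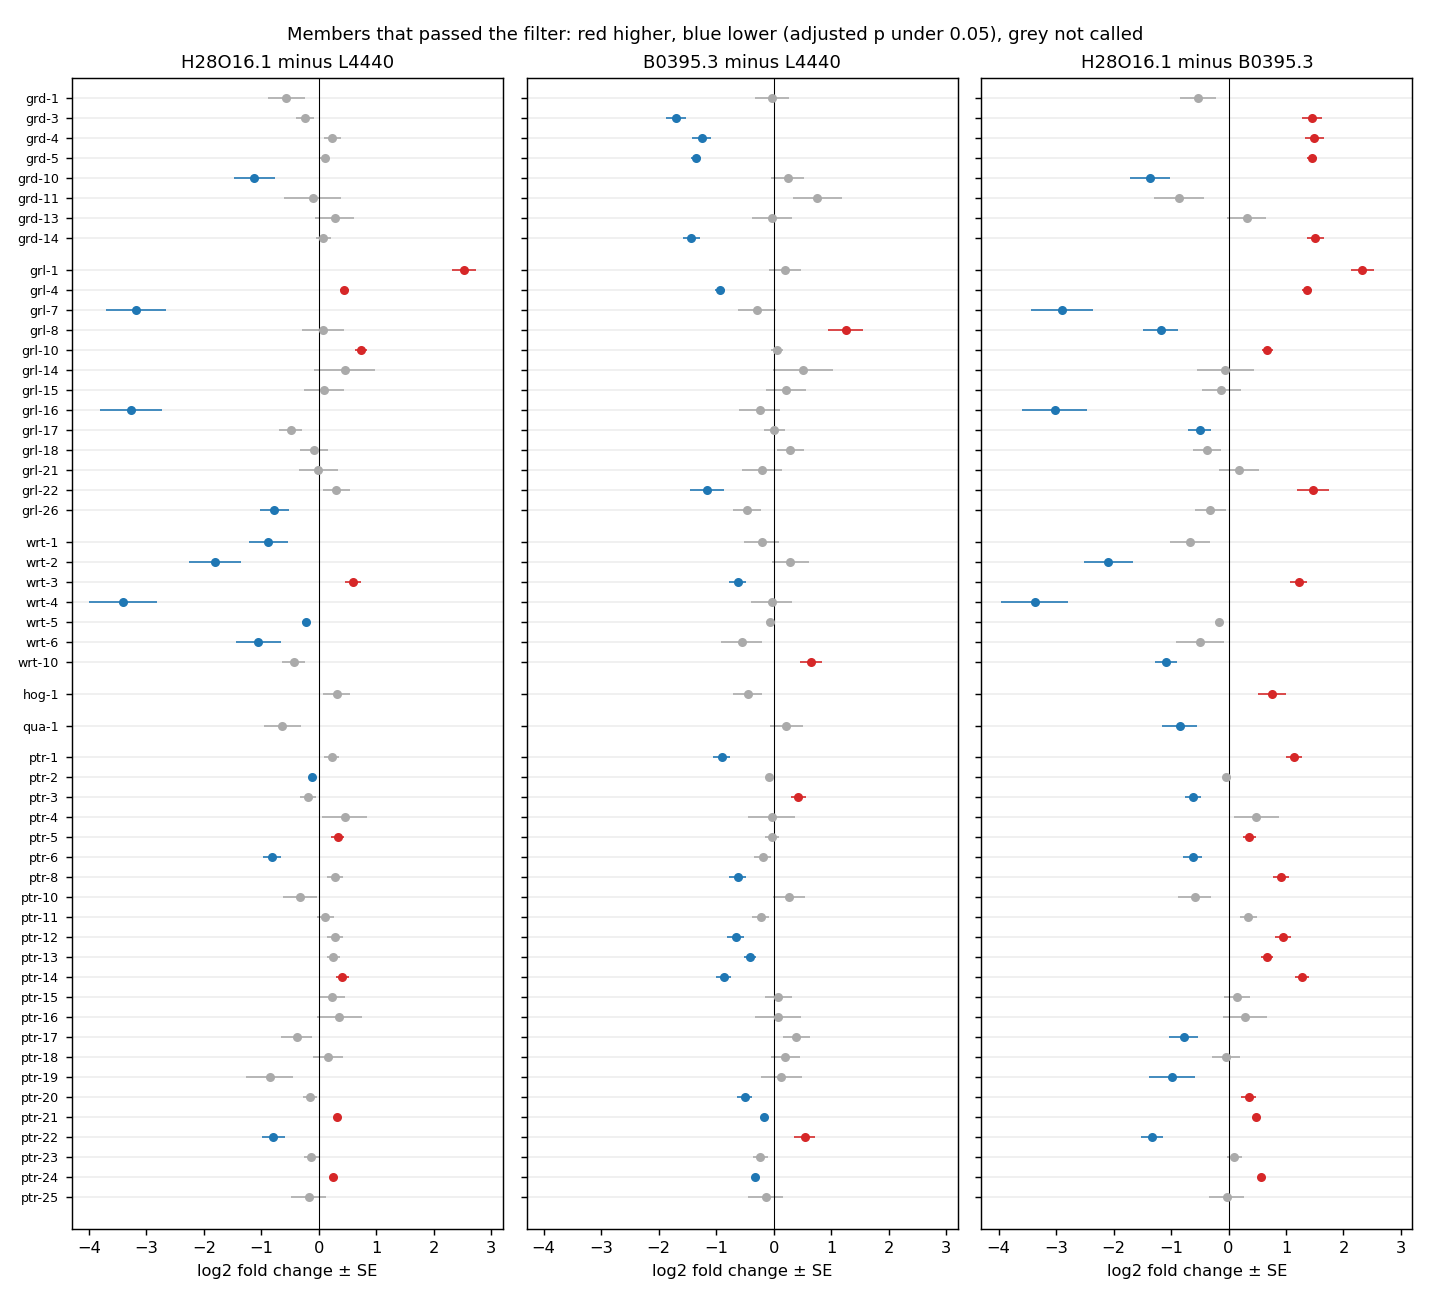
Log2 fold change ± SE (horizontal axis) of the 53 members that passed the filter, by family, for H28O16.1 minus L4440, B0395.3 minus L4440 and H28O16.1 minus B0395.3; red members were called higher, blue members lower, grey members not called. grd-3, grd-4, grd-5 and grd-14 lie left of 0 for B0395.3 and near 0 for H28O16.1, whereas wrt-2, wrt-4, grl-7 and grl-16 show the reverse.

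In the groundhog family, the 4 most abundant genes fell together under B0395.3 RNAi, and none of these 4 was called under H28O16.1 RNAi. grd-5 stood at 21.5, 19.5 and 17.6 CPM in L4440, 8.46, 7.02 and 7.54 CPM in B0395.3 and 20.6, 20.7 and 21.8 CPM in H28O16.1. All 3 B0395.3 libraries lay under every library of both other groups, at 0.394-fold the control level (log2 fold change -1.34, SE 0.086, adjusted p = 1.41e-07). grd-3 read 11.5, 11.1 and 7.66 CPM in L4440, 3.92, 2.8 and 2.57 CPM in B0395.3 and 7.96, 8.53 and 9.07 CPM in H28O16.1, with B0395.3 again lowest (log2 fold change -1.69, SE 0.17, adjusted p = 8.70e-06). For grd-14 the values were 3.91, 2.94 and 3.01 CPM in L4440, 1.27, 1.28 and 1.09 CPM in B0395.3 and 3.29, 3.36 and 3.72 CPM in H28O16.1, and B0395.3 lay below both other groups (log2 fold change -1.43, SE 0.15, adjusted p = 1.24e-05). The fourth gene, grd-4, had 4.13, 3.5 and 4.35 CPM in L4440, 1.89, 2 and 1.16 CPM in B0395.3 and 4.47, 4.61 and 5.01 CPM in H28O16.1, with the same order of groups (log2 fold change -1.25, SE 0.17, adjusted p = 0.000105). These 4 falls were called under all 18 alternatives of the processing. The direct test placed each of them higher in H28O16.1 than in B0395.3, by log2 differences between 1.45 (grd-5, adjusted p = 1.02e-08) and 1.51 (grd-14, adjusted p = 1.43e-06). In H28O16.1 against L4440 the log2 fold changes were 0.11 for grd-5 (adjusted p = 0.273), -0.24 for grd-3 (0.203), 0.078 for grd-14 (0.635) and 0.24 for grd-4 (0.192), none of them called. Without L4440 replicate 3, the lowest of its group for grd-3, that gene was called lower in H28O16.1 (log2 fold change -0.40, adjusted p = 0.0235).

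The 4 genes are short, with 2 or 3 exons and 524 to 766 exonic bases, and they sit at 3 places in the genome. grd-14 (X, 8500021 to 8501037) and grd-4 (X, 8501222 to 8502288) are neighbours on the plus strand, 184 bases apart. grd-5 lies alone on V (8619032 to 8619870, plus strand). grd-3 (IV, 3439655 to 3440453, plus strand) lies between grd-13, 147 bases upstream, and grd-10, 601 bases downstream. Those flanking genes did not follow it: in B0395.3 against L4440, grd-13 had a log2 fold change of -0.036 (SE 0.35, adjusted p = 0.954) and grd-10 of 0.24 (SE 0.29, adjusted p = 0.586). grd-13 stood at 0.55, 0.428 and 0.253 CPM in L4440 and 0.55, 0.257 and 0.364 CPM in B0395.3, far below grd-3.

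grd-10, a gene whose reporters mark seam cells of the epidermis, was the only groundhog gene called under H28O16.1 RNAi. It stood at 0.468, 0.454 and 0.329 CPM in L4440, 0.502, 0.542 and 0.436 CPM in B0395.3 and 0.104, 0.157 and 0.293 CPM in H28O16.1, with every H28O16.1 library below the controls (log2 fold change -1.12, SE 0.36, adjusted p = 0.0156). This call did not hold without L4440 replicate 1 (adjusted p = 0.0511), H28O16.1 replicate 1 (adjusted p = 0.0713) or H28O16.1 replicate 2 (adjusted p = 0.0519). grd-1, which has been described as acting with PTR-11 on the rate of development, and grd-11 were not called in any comparison with all libraries. Without H28O16.1 replicate 3, grd-11 was called lower in H28O16.1 than in B0395.3 (log2 fold change -1.50, adjusted p = 0.0165), from 2, 6 and 12 counts in H28O16.1 and 10, 14 and 15 in B0395.3. grd-1 stood at 0.33, 0.588 and 0.556 CPM in L4440, 0.502, 0.4 and 0.533 CPM in B0395.3 and 0.209, 0.345 and 0.44 CPM in H28O16.1. grd-11 had a log2 fold change of 0.76 in B0395.3 (SE 0.42, adjusted p = 0.215). By count, 4 of the 8 groundhog genes tested fell under B0395.3 RNAi and 1 fell under H28O16.1 RNAi, with no other calls, so that 50.0% and 12.5% were called lower, beside 14.6% and 31.2% of all genes. grd-10 was chosen after its values were seen, as were the other named members below 1 CPM.

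**Figure D3:**
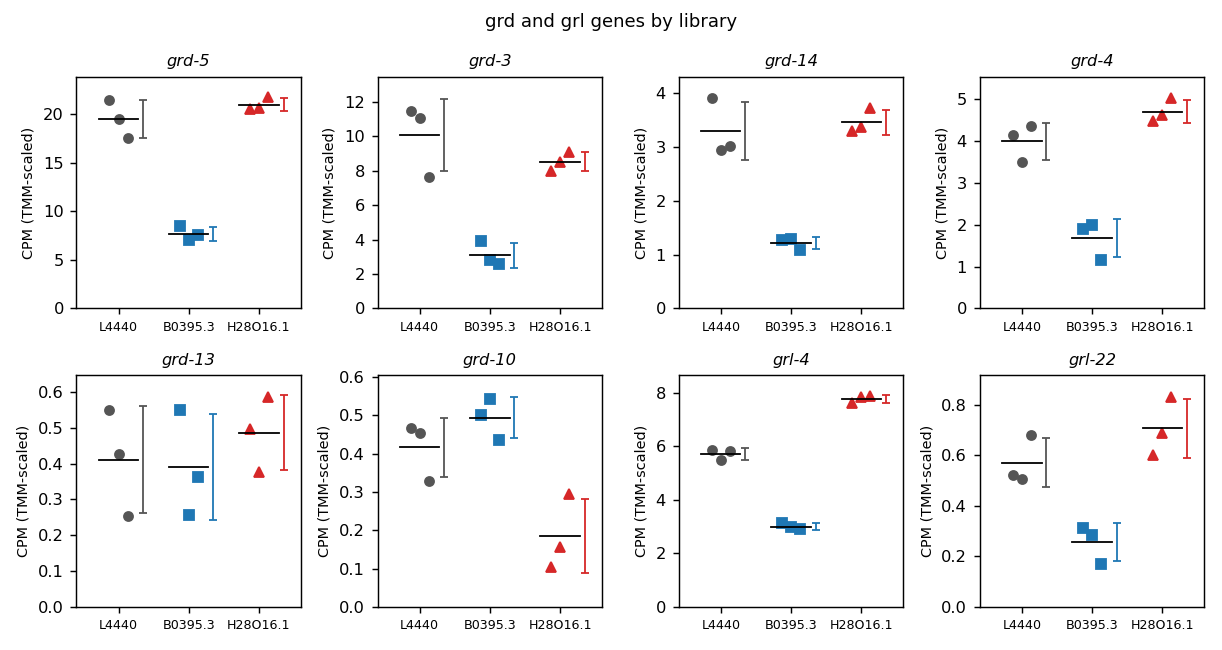
CPM by library (points), group mean (line) and SD over 3 libraries (bar at the side) for 6 grd genes, grl-4 and grl-22 in L4440, B0395.3 and H28O16.1; each panel has its own axis from 0. In grd-5, grd-3, grd-14, grd-4, grl-4 and grl-22 all B0395.3 points lie below those of both other groups, and in grd-13 they do not.

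The ground-like family held the largest rise and 2 of the largest falls among the members under H28O16.1 RNAi. grl-1, on V from 5530725 to 5533855 on the minus strand, stood at 0.468, 0.374 and 0.379 CPM in L4440, 0.478, 0.599 and 0.339 CPM in B0395.3 and 2.01, 2.51 and 2.57 CPM in H28O16.1. The H28O16.1 libraries lay well above both other groups, which overlapped each other; the rise over L4440 was 5.77-fold (log2 fold change 2.53, SE 0.21, adjusted p = 3.00e-07), while the direct test against B0395.3 gave 2.33 (adjusted p = 3.93e-07). grl-10 (V, 7774545 to 7775759, plus strand) stood at 3.74, 3.69 and 3.61 CPM in L4440, 3.39, 4.05 and 4.05 CPM in B0395.3 and 6.45, 5.52 and 6.33 CPM in H28O16.1, again highest in H28O16.1 (log2 fold change 0.73, SE 0.10, adjusted p = 4.46e-05). It shares 1.85% of its exon bases with rpl-39 on the opposite strand, a ribosomal protein gene that itself rose by a log2 fold change of 0.32 (adjusted p = 0.000235); strand was not marked by the kit. grl-4 (IV, 7309838 to 7310760, minus strand) split the groups 3 ways. It stood at 5.86, 5.48 and 5.81 CPM in L4440, 3.13, 2.97 and 2.91 CPM in B0395.3 and 7.62, 7.84 and 7.87 CPM in H28O16.1, so that it was higher than the controls under H28O16.1 RNAi (log2 fold change 0.44, SE 0.079, adjusted p = 0.000318) and lower under B0395.3 RNAi (log2 fold change -0.93, SE 0.088, adjusted p = 4.60e-06). These calls of grl-1, grl-10 and grl-4 held under all 18 alternatives.

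The falls of ground-like genes under H28O16.1 RNAi reached nearly to 0. grl-16 (I, 572173 to 575120, minus strand) had 3.19, 1.04 and 1.59 CPM in L4440, 1.31, 1.94 and 1.67 CPM in B0395.3 and 0.131, 0.0314 and 0.391 CPM in H28O16.1. Each H28O16.1 library lay below each control, although L4440 replicate 1 was far above the other controls (log2 fold change -3.27, SE 0.54, adjusted p = 0.000183). grl-7, whose product is a component of the matrix that precedes the alae of the cuticle, showed the same order. In the fit of only the 6 libraries compared, it did not pass the filter. It stood at 0.798, 0.267 and 0.733 CPM in L4440, 0.574, 0.371 and 0.509 CPM in B0395.3 and 0.0522, 0.0627 and 0.0734 CPM in H28O16.1 (log2 fold change -3.19, SE 0.52, adjusted p = 0.000161), from 29, 10 and 29 counts in L4440, 24, 13 and 21 in B0395.3 and 2, 2 and 3 in H28O16.1, and each of its 3 values under H28O16.1 RNAi rests on 2 or 3 reads. grl-26, called lower as well (log2 fold change -0.77, SE 0.26, adjusted p = 0.0194), lost that call without L4440 replicate 2 (adjusted p = 0.0523), H28O16.1 replicate 2 (adjusted p = 0.0737), L4440 replicate 3 (adjusted p = 0.0764) or H28O16.1 replicate 3 (adjusted p = 0.0698). grl-17 missed the threshold, with 0.908, 0.828 and 0.961 CPM in L4440 and 0.627, 0.659 and 0.636 CPM in H28O16.1 (adjusted p = 0.0523), although its libraries did not overlap.

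In B0395.3, grl-4 and grl-22 fell and grl-8 rose. grl-22 stood at 0.523, 0.508 and 0.682 CPM in L4440, 0.311, 0.285 and 0.17 CPM in B0395.3 and 0.601, 0.69 and 0.831 CPM in H28O16.1 (log2 fold change -1.16, SE 0.29, adjusted p = 0.00943), and its call was lost without L4440 replicate 3 (adjusted p = 0.0503) or B0395.3 replicate 3 (adjusted p = 0.0529). It shares 13.2% of its exon bases with W03A5.1 on the opposite strand, which was not called (adjusted p = 0.842). grl-8 stood at 0.248, 0.374 and 0.253 CPM in L4440, 0.622, 0.571 and 0.897 CPM in B0395.3 and 0.339, 0.408 and 0.196 CPM in H28O16.1 and was the only ground-like gene called higher in B0395.3 (log2 fold change 1.26, SE 0.31, adjusted p = 0.00786). Its neighbour grl-9, 136 bases away, had 6, 10 and 10 counts in L4440, 8, 5 and 6 in B0395.3 and 19, 7 and 8 in H28O16.1 and did not pass the filter. grl-21, which has been described as acting with PTR-24 on lipid stores and mitochondria, was at 0.358, 0.187 and 0.303 CPM in L4440, 0.215, 0.285 and 0.242 CPM in B0395.3 and 0.287, 0.376 and 0.196 CPM in H28O16.1 and was called in no comparison. grl-14, grl-15 and grl-18, the last a marker of inner labial socket glia, were not called either, with log2 fold changes between -0.083 and 0.45 in H28O16.1 and between 0.21 and 0.51 in B0395.3. The value of grl-14 rested on H28O16.1 replicate 3, with 7, 5 and 30 counts in that group. Without it the log2 fold change against L4440 was -0.67, and grl-14 was called lower than in B0395.3 (-1.18, adjusted p = 0.0299). Of 13 ground-like genes tested, 3 rose and 3 fell under H28O16.1 RNAi, each 23.1% beside 26.3% and 31.2% of all genes tested. Under B0395.3 RNAi 1 rose and 2 fell, or 7.69% and 15.4% beside 12.6% and 14.6%.

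Among the warthog genes, 5 of the 7 tested fell under H28O16.1 RNAi and wrt-3 rose. 71.4% were thus called lower, where 31.2% of all genes tested were. In the fit of only the 6 libraries compared, wrt-4 did not pass the filter, so its fall was tested only with B0395.3 included. The calls of wrt-1, wrt-5 and wrt-6 were each lost under some alternatives. This share is therefore not read as a trait of the family. The steepest fall was that of wrt-4 (X, 15752257 to 15757269, minus strand). It stood at 0.688, 0.214 and 0.632 CPM in L4440, 0.55, 0.457 and 0.485 CPM in B0395.3 and 0.0261, 0.0941 and 0.0245 CPM in H28O16.1, which came from 25, 8 and 25 counts in L4440, 23, 16 and 20 in B0395.3 and 1, 3 and 1 in H28O16.1. Its H28O16.1 libraries lay below all others (log2 fold change -3.41, SE 0.59, adjusted p = 0.000255). wrt-2, whose reporters mark seam cells, had 0.33, 0.481 and 0.43 CPM in L4440, 0.598, 0.514 and 0.412 CPM in B0395.3 and 0.0783, 0.0314 and 0.22 CPM in H28O16.1 and was again lowest in H28O16.1 (log2 fold change -1.80, SE 0.45, adjusted p = 0.00379). It shares 2.80% of its exon bases with pccb-1 on the opposite strand, whose own log2 fold change was -0.36. wrt-1 (log2 fold change -0.88, SE 0.34, adjusted p = 0.0428) and wrt-6 (log2 fold change -1.05, SE 0.39, adjusted p = 0.0352) were called lower although their libraries overlapped those of L4440. wrt-1 lost that call without L4440 replicate 1 (adjusted p = 0.167), H28O16.1 replicate 1 (adjusted p = 0.0752), B0395.3 replicate 2 (adjusted p = 0.0502), H28O16.1 replicate 2 (adjusted p = 0.14) or L4440 replicate 3 (adjusted p = 0.112). wrt-6 lost its call without L4440 replicate 1 (adjusted p = 0.0894), H28O16.1 replicate 1 (adjusted p = 0.13), H28O16.1 replicate 2 (adjusted p = 0.108) or L4440 replicate 3 (adjusted p = 0.155).

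wrt-5, the most abundant warthog gene, has been described as needed for development of the epidermis. It stood at 9.19, 9.83 and 8.97 CPM in L4440, 9.06, 8.56 and 9.21 CPM in B0395.3 and 7.78, 8.37 and 7.82 CPM in H28O16.1, a small fall under H28O16.1 RNAi (log2 fold change -0.22, SE 0.074, adjusted p = 0.0194) that did not hold without H28O16.1 replicate 1 (adjusted p = 0.0502) or L4440 replicate 2 (adjusted p = 0.0864) or with library totals alone as the scaling (adjusted p = 0.0717). wrt-3 (IV, 9473633 to 9477456, minus strand) moved the other way. Its values were 3.19, 3.63 and 3.61 CPM in L4440, 2.53, 1.88 and 2.3 CPM in B0395.3 and 4.23, 5.74 and 5.82 CPM in H28O16.1, above the controls in H28O16.1 (log2 fold change 0.59, SE 0.14, adjusted p = 0.00263) and below them in B0395.3 (log2 fold change -0.63, SE 0.15, adjusted p = 0.00865). A pseudogene on the same strand shares 41.1% of its exon bases and had 16 counts over all libraries. wrt-10 has been described as signalling through PTC-1 and PTR-2 of the germ line to keep oocyte quality. It stood at 7.29, 4.78 and 5.74 CPM in L4440, 11, 8.22 and 8.68 CPM in B0395.3 and 3.19, 4.11 and 5.77 CPM in H28O16.1, higher in every B0395.3 library than in any other library (log2 fold change 0.65, SE 0.19, adjusted p = 0.0211). That rise was lost without B0395.3 replicate 1 (adjusted p = 0.103), L4440 replicate 2 (adjusted p = 0.0952) or L4440 replicate 3 (adjusted p = 0.0645). In H28O16.1 against L4440 it was not called (log2 fold change -0.44, SE 0.20, adjusted p = 0.0851), and it was called lower without L4440 replicate 2 (adjusted p = 0.0429) or H28O16.1 replicate 3 (adjusted p = 0.00351). The direct test put it lower in H28O16.1 than in B0395.3 (log2 fold change -1.09, SE 0.20, adjusted p = 0.000302). wrt-1 and wrt-10 lie end to end on II, 15 bases apart and on opposite strands, and wrt-1 was not called in B0395.3 (log2 fold change -0.21, adjusted p = 0.673).

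**Figure D4:**
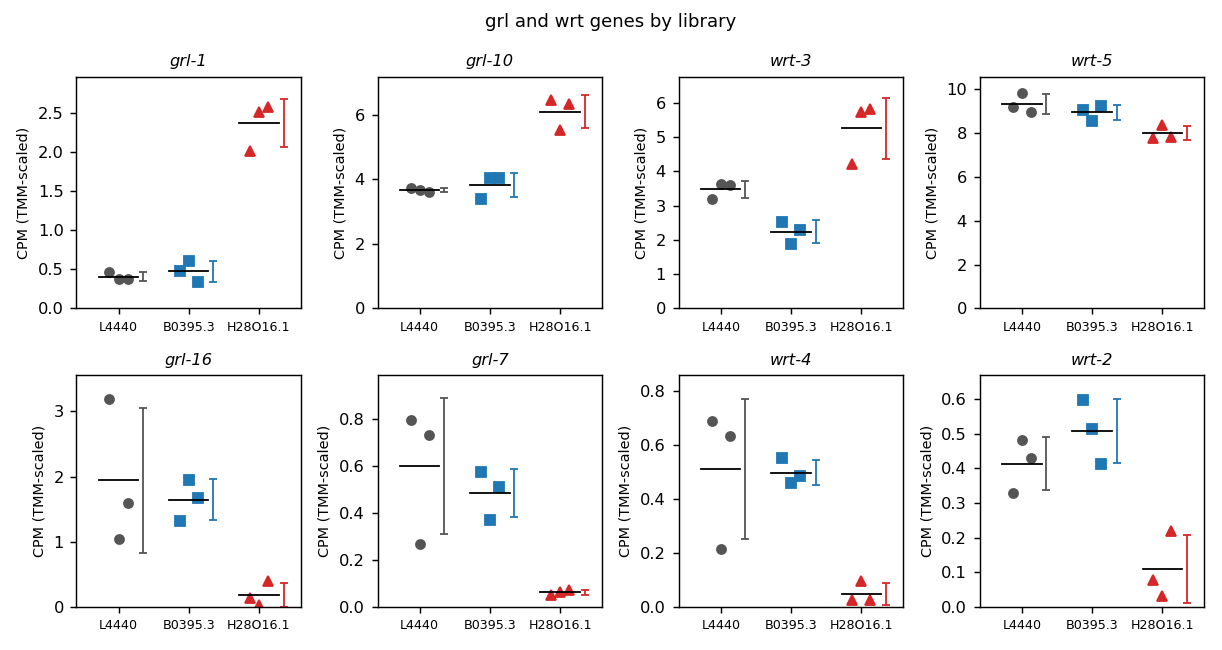
CPM by library (points), group mean (line) and SD over 3 libraries (bar at the side) for 4 grl and 4 wrt genes in L4440, B0395.3 and H28O16.1; each panel has its own axis from 0, which ends the lower bar of grl-16. In grl-1, grl-10 and wrt-3 the H28O16.1 points lie above all others, and in wrt-5, grl-16, grl-7, wrt-4 and wrt-2 they lie under all others.

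Animals were sampled whole, so fewer cells of a type and less RNA per cell cannot be told apart. Markers of embryos, which gravid hermaphrodites carry, moved with the H28O16.1 comparison in which the warthog and ground-like falls were seen. Their summed level over 18 genes was 153 to 155 CPM in L4440, 187 to 193 CPM in B0395.3 and 35.3 to 36.3 CPM in H28O16.1. Of 12 embryo markers tested, 10 fell under H28O16.1 RNAi and the other 2 were not called, and 1 fell and 7 rose under B0395.3 RNAi. Called lower in H28O16.1 were thus 83.3%, beside 31.2% of all genes tested. In B0395.3 8.33% were lower and 58.3% higher, beside 14.6% and 12.6%. The list was written with earlier results of these data known, so its counts were not independent of them. vet-6 stood at 34.5, 33.3 and 34.1 CPM in L4440, 32.5, 35.7 and 34.5 CPM in B0395.3 and 1.62, 1.54 and 1.56 CPM in H28O16.1, and tbx-37, a T-box factor of the early embryo, at 5.64, 5.61 and 6.14 CPM in L4440, 7.1, 7.88 and 7.05 CPM in B0395.3 and 0.157, 0.157 and 0.245 CPM in H28O16.1. The part of this difference in the falls of wrt-2, wrt-4, grl-7 and grl-16 was not tested. med-1, med-2, hlh-25 and hlh-27, further embryo markers, were at or near 0 in all groups, with at most 2 counts in a library.

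hog-1 and qua-1 were called in neither comparison with L4440. hog-1 stood at 0.605, 0.401 and 0.556 CPM in L4440, 0.406, 0.371 and 0.364 CPM in B0395.3 and 0.731, 0.533 and 0.66 CPM in H28O16.1. The H28O16.1 group was highest and B0395.3 lowest, and the direct test called that difference (log2 fold change 0.76, SE 0.24, adjusted p = 0.0149), a call that did not hold without H28O16.1 replicate 1 (adjusted p = 0.0589) or in DESeq2 (adjusted p = 0.0940). qua-1 stood at 0.908, 0.401 and 0.986 CPM in L4440, 1.03, 0.714 and 0.921 CPM in B0395.3 and 0.496, 0.376 and 0.587 CPM in H28O16.1. It showed the opposite order, lower in H28O16.1 than in B0395.3 (log2 fold change -0.85, SE 0.31, adjusted p = 0.0293), and that call was lost without B0395.3 replicate 1 (adjusted p = 0.103), H28O16.1 replicate 1 (adjusted p = 0.0589), H28O16.1 replicate 2 (adjusted p = 0.0966) or B0395.3 replicate 3 (adjusted p = 0.0715). Without L4440 replicate 2, its lowest control library, qua-1 was called lower in H28O16.1 than in L4440 (log2 fold change -0.93, adjusted p = 0.00885).

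The patched-related family, the membrane side of the set, fell more than it rose under B0395.3 RNAi: of 23 genes tested, 8 fell and 2 rose. That is 34.8% called lower and 8.70% higher, beside 14.6% and 12.6% of all genes tested. ptr-1 stood at 3.6, 3.5 and 3.39 CPM in L4440, 1.89, 1.88 and 1.82 CPM in B0395.3 and 3.47, 3.79 and 4.96 CPM in H28O16.1, with tightly grouped B0395.3 libraries below all others (log2 fold change -0.91, SE 0.14, adjusted p = 0.000416). ptr-14 had 10.5, 10.5 and 10.7 CPM in L4440, 6.14, 5.97 and 5.23 CPM in B0395.3 and 12.3, 12.4 and 17.3 CPM in H28O16.1. Its 3 groups did not overlap: B0395.3 was lowest (log2 fold change -0.87, SE 0.13, adjusted p = 0.000217) and H28O16.1 highest (log2 fold change 0.41, SE 0.12, adjusted p = 0.00938). ptr-12 stood at 3.08, 2.65 and 2.63 CPM in L4440, 1.46, 1.88 and 1.94 CPM in B0395.3 and 2.98, 3.39 and 3.79 CPM in H28O16.1 (log2 fold change -0.66, SE 0.15, adjusted p = 0.00504), and ptr-8 at 11.4, 13.9 and 11.7 CPM in L4440, 7.82, 8.48 and 7.71 CPM in B0395.3 and 12, 14 and 19.1 CPM in H28O16.1 (log2 fold change -0.63, SE 0.15, adjusted p = 0.00622); in both, B0395.3 lay below the controls. These falls of ptr-1, ptr-8, ptr-12 and ptr-14 were called under all 18 alternatives.

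ptr-24, ptr-21, ptr-13 and ptr-20 were called lower in B0395.3 as well. ptr-24, described as acting with GRL-21 on lipid stores, stood at 29.5, 33.2 and 31.3 CPM in L4440, 25.4, 24.4 and 25.2 CPM in B0395.3 and 36.1, 36.2 and 39.1 CPM in H28O16.1. It was below the controls in B0395.3 (log2 fold change -0.33, SE 0.055, adjusted p = 0.000655) and above them in H28O16.1 (log2 fold change 0.25, SE 0.054, adjusted p = 0.00156). ptr-21 showed the same order at 37.3, 39.6 and 38.5 CPM in L4440, 32.9, 34.6 and 35.6 CPM in B0395.3 and 48, 44.4 and 50.5 CPM in H28O16.1, higher in H28O16.1 (log2 fold change 0.31, SE 0.052, adjusted p = 0.000204) and lower in B0395.3 (log2 fold change -0.16, SE 0.053, adjusted p = 0.0356). The B0395.3 call of ptr-21 was lost with library totals alone (log2 fold change -0.10, adjusted p = 0.154), and without B0395.3 replicate 1 (adjusted p = 0.143), L4440 replicate 2 (adjusted p = 0.127), B0395.3 replicate 2 (adjusted p = 0.0819) or L4440 replicate 3 (adjusted p = 0.095). ptr-13 (log2 fold change -0.41, SE 0.11, adjusted p = 0.0134) and ptr-20 (log2 fold change -0.50, SE 0.13, adjusted p = 0.0118) were the last of these. The ptr-13 call was lost without B0395.3 replicate 1 (adjusted p = 0.0664) or L4440 replicate 2 (adjusted p = 0.0543), and the ptr-20 call without B0395.3 replicate 1 (adjusted p = 0.0514) or L4440 replicate 2 (adjusted p = 0.0526).

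ptr-22 and ptr-3 rose under B0395.3 RNAi. ptr-22 stood at 3.33, 4.65 and 2.96 CPM in L4440, 4.28, 5.19 and 6.4 CPM in B0395.3 and 1.78, 2.23 and 2.32 CPM in H28O16.1. Under H28O16.1 RNAi it fell, with all 3 libraries under the controls (log2 fold change -0.79, SE 0.20, adjusted p = 0.00469), while its B0395.3 libraries overlapped the controls (log2 fold change 0.54, SE 0.18, adjusted p = 0.0391). The direct test separated the RNAi groups (log2 fold change -1.33, SE 0.19, adjusted p = 5.01e-05). ptr-3 stood at 2.89, 3.05 and 2.17 CPM in L4440, 3.54, 3.94 and 3.44 CPM in B0395.3 and 2.17, 2.54 and 2.4 CPM in H28O16.1, with B0395.3 above the controls (log2 fold change 0.43, SE 0.13, adjusted p = 0.031). Both calls depended on single libraries. That of ptr-22 was lost without L4440 replicate 1 (adjusted p = 0.118), B0395.3 replicate 2 (adjusted p = 0.0825), H28O16.1 replicate 2 (adjusted p = 0.0525), L4440 replicate 3 (adjusted p = 0.154) or B0395.3 replicate 3 (adjusted p = 0.19), and that of ptr-3 without B0395.3 replicate 1 (adjusted p = 0.0655), B0395.3 replicate 2 (adjusted p = 0.11), L4440 replicate 3 (adjusted p = 0.13) or B0395.3 replicate 3 (adjusted p = 0.0556).

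Under H28O16.1 RNAi, ptr-5, ptr-14, ptr-21 and ptr-24 rose and ptr-2, ptr-6 and ptr-22 fell. Of the 23 ptr genes tested, 17.4% were thus called higher and 13% lower, beside 26.3% and 31.2% of all genes tested. In either direction 30.4% were called, fewer than the 57.6% of all genes tested. ptr-6 stood at 2.5, 2.78 and 2.65 CPM in L4440, 2.25, 2.57 and 2.16 CPM in B0395.3 and 1.38, 1.19 and 1.88 CPM in H28O16.1, below the controls in each H28O16.1 library (log2 fold change -0.81, SE 0.16, adjusted p = 0.000739). ptr-2, the most abundant member, stood at 349, 366 and 352 CPM in L4440, 334, 346 and 333 CPM in B0395.3 and 325, 320.4 and 339 CPM in H28O16.1. Its H28O16.1 libraries lay below the controls by a small margin (log2 fold change -0.12, SE 0.031, adjusted p = 0.0052), a call that was lost with library totals alone (log2 fold change -0.064, adjusted p = 0.0740). In B0395.3 ptr-2 was not called (log2 fold change -0.074, SE 0.030, adjusted p = 0.0937) although its libraries also lay below the controls, and it was called without H28O16.1 replicate 3 (adjusted p = 0.0362). ptr-5, at 3.27, 3.05 and 2.88 CPM in L4440 and 3.32, 3.92 and 4.3 CPM in H28O16.1, rose (log2 fold change 0.33, SE 0.12, adjusted p = 0.0285) but lost the call without L4440 replicate 2 (adjusted p = 0.0649), H28O16.1 replicate 2 (adjusted p = 0.0666), L4440 replicate 3 (adjusted p = 0.0864) or H28O16.1 replicate 3 (adjusted p = 0.117).

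Replicate 3 of H28O16.1 read higher than both other libraries of its group in 21 of the 23 ptr genes, which is 91.3%, and in 42 of the 53 members, 79.2%. Over all genes tested that share was 40.2%. For ptr-4, which has been described as shaping the matrix that precedes the cuticle, the H28O16.1 libraries stood at 1.33, 1.51 and 3.69 CPM, and L4440 at 2.45, 0.802 and 1.64 CPM. ptr-23, described as affecting resistance to osmotic stress, had 16.5, 19 and 16.6 CPM in L4440 and 13.1, 14.1 and 20.3 CPM in H28O16.1. Without that library ptr-23 was called lower in H28O16.1 (log2 fold change -0.36, adjusted p = 0.000870), as were ptr-20 (-0.34, adjusted p = 0.00788), ptr-10 (-0.86, adjusted p = 0.0104), ptr-19 (-1.30, adjusted p = 0.0286) and ptr-25 (-0.67, adjusted p = 0.0368). With wrt-10 and with grd-6 and grl-5, which passed the filter in that fit, and with grl-26 lost, 19 members were called lower in H28O16.1, from 12. Over all genes tested in that fit, 4722 of 14868 were called lower. Without replicate 1, ptr-8 (0.43, adjusted p = 0.00822), ptr-13 (0.33, adjusted p = 0.0186), ptr-1 (0.34, adjusted p = 0.0381) and ptr-12 (0.37, adjusted p = 0.0419) were called higher, and with grd-16, which passed the filter in that fit, 13 were called higher, from 8. Over all genes tested there, 3816 of 14916 were called higher. ptr-10, whose promoter marks glia, stood at 1.21, 0.828 and 0.859 CPM in L4440 and 0.47, 0.596 and 1.2 CPM in H28O16.1. The summed CPM of the 82 members other than ptr-2 was 243 to 255 in L4440, 195 to 197 in B0395.3, and 252, 258 and 310.0 in the H28O16.1 libraries.

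**Figure D5:**
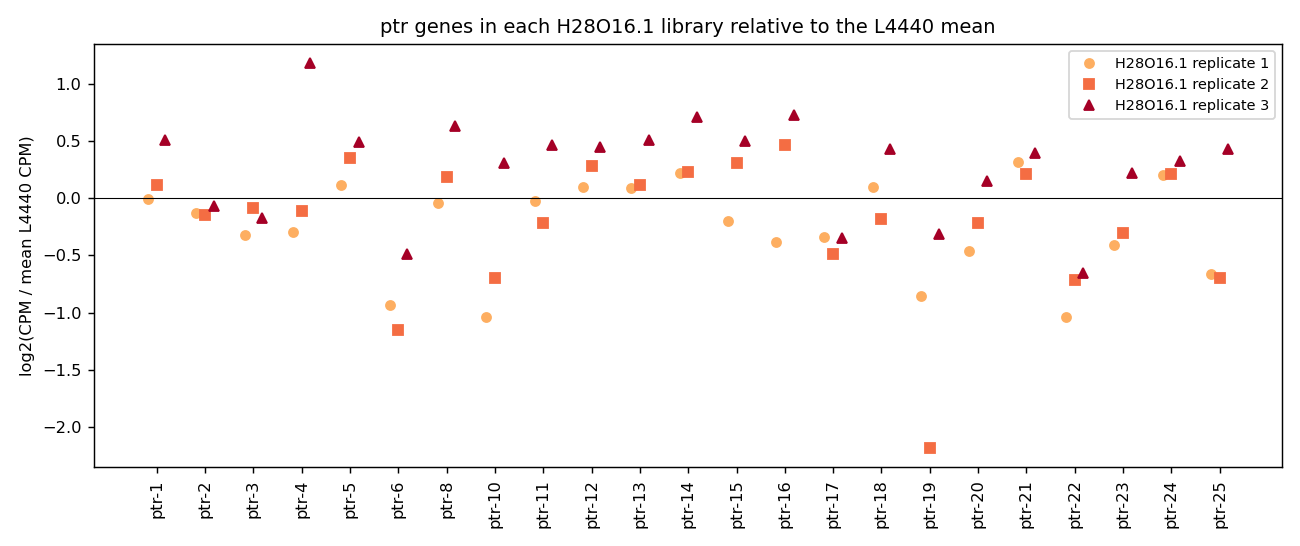
Log2 of the CPM in each H28O16.1 library over the mean L4440 CPM (vertical axis) for the 23 ptr genes that passed the filter. The replicate 3 points are the highest of the group in 21 of the 23 genes.

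Levels of moulting and apical matrix genes also differed between the H28O16.1 libraries. The 20 genes of that list summed to 142 to 224 CPM in H28O16.1, 192 to 226 CPM in L4440 and 178 to 188 CPM in B0395.3, and the part of this spread in the ptr values was not tested. mup-4, a membrane protein of the attachment between epidermis and cuticle, stood at 50.4, 53.9 and 49.8 CPM in L4440, 22.9, 24.1 and 23.3 CPM in B0395.3 and 40.5, 44.9 and 69.1 CPM in H28O16.1. It fell under B0395.3 RNAi (log2 fold change -1.13, SE 0.15, adjusted p = 8.91e-05), and in H28O16.1 its replicate 3 was above every control and its other libraries below. mlt-10, a moulting gene, was lower in every H28O16.1 library (log2 fold change -1.90, SE 0.11, adjusted p = 1.51e-08). mlt-3 was higher than L4440 in H28O16.1 (0.42, adjusted p = 0.0071) and lower in B0395.3 (-0.50, adjusted p = 0.0092). Of the 20 genes, 3 rose and 6 fell under H28O16.1 RNAi, with a median log2 fold change of 0.037, and 1 rose and 2 fell under B0395.3 RNAi, with a median of -0.0047.

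In the direct comparison, 9 ptr genes were higher in H28O16.1 than in B0395.3 and 5 lower, 4 grd genes were higher and 1 lower, 4 grl genes were higher and 4 lower, and 1 wrt gene was higher and 3 lower, where 30.5% and 32.1% of all genes tested were called. Of these, the lower calls of ptr-19 and grl-17 were each lost under 11 of the 17 alternatives that tested them, and ptr-17 was lost in DESeq2 (adjusted p = 0.0826) and without B0395.3 replicate 2 (adjusted p = 0.0728). Without H28O16.1 replicate 3, ptr-5 (0.27, adjusted p = 0.0709), ptr-20 (0.17, adjusted p = 0.173) and grl-17 (-0.50, adjusted p = 0.0883) were not called, and ptr-10 was called lower (-1.13, adjusted p = 0.00109). Largest among the higher members were grl-1 (2.33), grd-14 (1.51), grd-4 (1.49) and grl-22 (1.47, adjusted p = 0.000476). At the other end stood wrt-4 (-3.38, adjusted p = 0.000239), grl-16 (-3.03, adjusted p = 0.00036), grl-7 (-2.89, adjusted p = 0.000407) and wrt-2 (-2.09, adjusted p = 0.000828). Their H28O16.1 counts were 1, 3 and 1 for wrt-4, 5, 1 and 16 for grl-16, 2, 2 and 3 for grl-7 and 3, 1 and 9 for wrt-2. These genes thus passed the filter through the groups where they were high, and their sizes are not read as a ranking. 5 members were called above L4440 in H28O16.1 and below it in B0395.3: grl-4, wrt-3, ptr-14, ptr-21 and ptr-24. Each differed in the direct test, from 0.47 for ptr-21 (adjusted p = 3.99e-06) to 1.37 for grl-4 (adjusted p = 1.56e-08). Only ptr-22 was called in the reverse order. The test over all 3 groups called 33 of the 53 members different, or 62.3%, beside 69.2% of all genes tested.

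The calls depended on level. Of the 53 members, 24 had a mean under 1 CPM, and the median member stood at 1.45 CPM, where the median of all genes tested was 9.93 CPM. At 1 CPM or more, 58.6% of 29 members were called in B0395.3 against L4440, 3 higher and 14 lower, beside 30.8% of all genes of that level. In H28O16.1 against L4440, 44.8% of the same 29 members were called, 8 higher and 5 lower, beside 63.6% of all genes of that level. Under 1 CPM, 8.33% of 24 members were called in B0395.3 and 29.2% in H28O16.1, where the shares of all genes were 14.2% and 35.7%. Weaker calls also depended on the tool or the scaling. DESeq2's Wald test did not call grd-10 (adjusted p = 0.0611), grl-26 (adjusted p = 0.120), wrt-5 (adjusted p = 0.0705), wrt-6 (adjusted p = 0.101) or ptr-5 (adjusted p = 0.0637) in H28O16.1 against L4440, nor ptr-3 (adjusted p = 0.0590) or ptr-21 (adjusted p = 0.0570) in B0395.3 against L4440. limma on log2(RPKM + 0.1) did not call wrt-1 (adjusted p = 0.0701), ptr-2 (adjusted p = 0.0864) or ptr-5 (adjusted p = 0.0642) in the first of these comparisons, nor ptr-13 (adjusted p = 0.0523), ptr-21 (adjusted p = 0.210) or ptr-22 (adjusted p = 0.0508) in the second. The limma fit used library totals without TMM factors, so tool and scaling changed together. edgeR with library totals alone also lost wrt-1 (adjusted p = 0.0543) and ptr-2 (adjusted p = 0.0740) in the first and ptr-21 (adjusted p = 0.154) in the second. It kept ptr-5 in the first and ptr-13 and ptr-22 in the second. In H28O16.1 against B0395.3, qua-1 was called by neither tool, with adjusted p of 0.0549 in DESeq2 and 0.0584 in limma, and DESeq2 did not call grl-17 (adjusted p = 0.175) or ptr-19 (adjusted p = 0.0936). Calls were gained too: ptr-13 was called higher in H28O16.1 than in L4440 by DESeq2 (adjusted p = 0.0287), and by edgeR with median-ratio factors (adjusted p = 0.0401) or library totals alone (adjusted p = 0.0248).

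The 30 members below the filter gave counts too low for the main test. grd-6 was the most uneven of them, with 33, 9 and 8 counts in L4440, 11, 5 and 8 in B0395.3 and 3, 1 and 3 in H28O16.1; the controls alone ranged from 8 to 33. grl-5 had 11, 4 and 8 counts in L4440, 12, 4 and 8 in B0395.3 and 3, 1 and 4 in H28O16.1. grl-2, a gene of the excretory duct and pore and of socket glia, had 5, 6 and 9 counts in L4440, 5, 8 and 0 in B0395.3 and 3, 2 and 0 in H28O16.1. In these genes and in grl-11, with 5, 3 and 3 counts in L4440, 3, 0 and 6 in B0395.3 and 0, 1 and 1 in H28O16.1, H28O16.1 gave the fewest counts. grd-16, with 1, 4 and 4 counts in L4440, 6, 7 and 6 in B0395.3 and 8, 8 and 15 in H28O16.1, and grd-15, with 3, 2 and 3 counts in L4440, 3, 3 and 3 in B0395.3 and 6, 6 and 11 in H28O16.1, gave the most counts there. grd-7 had 4, 3 and 2 counts in L4440, 7, 9 and 9 in B0395.3 and 0, 2 and 2 in H28O16.1. With no filter on low counts, 2 of the 30 were called higher in H28O16.1 than in L4440, namely grd-15 (adjusted p = 0.0392) and grd-16 (adjusted p = 0.00414), and 4 lower, namely grd-6 (adjusted p = 5.94e-07), grl-2 (adjusted p = 0.0245), grl-5 (adjusted p = 0.0480) and wrt-8 (adjusted p = 0.0401). In that fit 4239 of the 24625 genes tested were called higher in H28O16.1 than in L4440 and 4669 lower. wrt-8 had 4, 4 and 2 counts in L4440, 3, 1 and 4 in B0395.3 and 1, 0 and 0 in H28O16.1. grd-6 was also called lower in B0395.3 (adjusted p = 0.0307). The cluster of grl-29, grl-30 and grl-31 on V gave at most 7 counts in any library. These genes were chosen after their values were seen.

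Patched itself and the other sterol-sensing proteins are the nearest relatives of the ptr family. ptc-1, the Patched of the germ line, stood at 886, 907 and 885 CPM in L4440, 826, 837 and 812 CPM in B0395.3 and 654, 644 and 674 CPM in H28O16.1, or 171 ± 0.989 RPKM in L4440. It was lower in H28O16.1 (log2 fold change -0.44, SE 0.029, adjusted p = 3.27e-08) and slightly lower in B0395.3 (log2 fold change -0.11, SE 0.029, adjusted p = 0.0101). scp-1, a relative of the sterol sensor SCAP, fell under H28O16.1 RNAi from 119, 119 and 123 CPM to 82, 75.3 and 82.6 CPM (log2 fold change -0.59, SE 0.035, adjusted p = 1.52e-08). ncr-1 and ncr-2 are homologues of the cholesterol transporter NPC1. ncr-1 rose under B0395.3 RNAi (log2 fold change 0.38, SE 0.070, adjusted p = 0.00123). ncr-2 rose in B0395.3 (log2 fold change 0.68, SE 0.13, adjusted p = 0.00183) and in H28O16.1 (log2 fold change 0.38, SE 0.14, adjusted p = 0.0346). Of the 8 genes of this list, 1 rose and 2 fell in H28O16.1 (median log2 fold change -0.12), and 2 rose and 1 fell in B0395.3 (median 0.067). ptc-3, che-14 and daf-6, the last pair acting at apical membranes of epithelia and glia, were not called in either comparison.

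Among counterparts of fly and vertebrate Hedgehog signalling, edgeR called no gene higher in either comparison with L4440. tra-1, the Gli homologue, which acts in sex determination in this animal, stood at 22.8, 26.3 and 25.9 CPM in L4440, 26.9, 29 and 28.8 CPM in B0395.3 and 27.3, 25.3 and 27.4 CPM in H28O16.1 and was called in no comparison. Of the 11 counterparts tested, 4 fell under H28O16.1 RNAi and the other 7 were not called, with a median log2 fold change of -0.027. Called lower were thus 36.4%, beside 31.2% of all genes tested. gsk-3, the kinase that in flies acts on the Gli protein, fell in H28O16.1 (log2 fold change -0.34, SE 0.045, adjusted p = 2.76e-05), as did the glypican genes lon-2 (log2 fold change -0.41, SE 0.065, adjusted p = 0.000105) and gpn-1 (log2 fold change -0.51, SE 0.17, adjusted p = 0.0188). Under B0395.3 RNAi edgeR called 0 of the 11, DESeq2 called 1 and limma on log2(RPKM + 0.1), scaled by library totals without TMM factors, called 3. At an unadjusted p under 0.05 edgeR had 2, and the median was -0.10.

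Regulators of the epidermis and of moulting moved in both directions. blmp-1, a transcription factor of the moulting cycle, stood at 11.3, 9.65 and 10.7 CPM in L4440, 6.84, 6.59 and 6.64 CPM in B0395.3 and 11.9, 11.4 and 11.5 CPM in H28O16.1 and fell under B0395.3 RNAi (log2 fold change -0.66, SE 0.077, adjusted p = 3.20e-05). elt-6, a GATA factor of seam cells, was lower than L4440 in H28O16.1 (log2 fold change -0.58, SE 0.13, adjusted p = 0.0014) and higher in B0395.3 (log2 fold change 0.57, SE 0.11, adjusted p = 0.00229). elt-1, a GATA factor that specifies epidermis, rose in B0395.3 (log2 fold change 0.39, SE 0.064, adjusted p = 0.000515). bed-3 rose (log2 fold change 0.71, SE 0.090, adjusted p = 1.69e-05) and myrf-2 fell (log2 fold change -0.78, SE 0.068, adjusted p = 4.93e-07) under H28O16.1 RNAi. Of 14 regulators, 3 rose and 4 fell in H28O16.1 and 2 rose and 2 fell in B0395.3, with medians of 0.019 and 0.053. In H28O16.1 that is 21.4% higher and 28.6% lower, beside 26.3% and 31.2% of all genes tested. In B0395.3 it is 14.3% each, beside 12.6% and 14.6%.

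Markers of the tissues that express the members were present. The 10 epidermis markers summed to 365 to 403 CPM in L4440, 357 to 362 CPM in B0395.3 and 406 to 463 CPM in H28O16.1. Among them, 3 cuticle collagens fell under H28O16.1 RNAi: col-10 (log2 fold change -2.94, SE 0.44, adjusted p = 7.67e-05), col-12 (log2 fold change -3.31, SE 0.51, adjusted p = 0.000102) and, of the adult stage, col-19 (log2 fold change -0.58, SE 0.13, adjusted p = 0.00187). The collagen gene dpy-7 was not called there (log2 fold change -0.66, adjusted p = 0.168). col-19 fell further in B0395.3 (log2 fold change -1.30, SE 0.14, adjusted p = 1.10e-05). ceh-16, the engrailed homologue of seam cells, was lower in H28O16.1 (log2 fold change -1.80, SE 0.23, adjusted p = 1.75e-05) and higher in B0395.3 (log2 fold change 0.94, SE 0.16, adjusted p = 0.000798). Of 9 epidermis markers tested, 2 rose and 5 fell in H28O16.1, or 22.2% and 55.6%, beside 26.3% and 31.2% of all genes tested. The genes named above are ones that fell there or were not called, although the summed level was higher than in L4440. Log2 fold changes in H28O16.1 ran from -3.31 to 0.45. In B0395.3 1 rose and 1 fell, or 11.1% each, beside 12.6% and 14.6%. Glia markers summed to 8.85 to 9.79 CPM in L4440, 9.43 to 10.4 CPM in B0395.3 and 10.4 to 11.3 CPM in H28O16.1, and of 5 tested, fig-1 rose in H28O16.1 (log2 fold change 0.52, SE 0.13, adjusted p = 0.00328) and pros-1 in B0395.3 (log2 fold change 0.57, SE 0.15, adjusted p = 0.0151). Each rise is 20.0% of the glia markers tested, beside 26.3% of all genes called higher in H28O16.1 and 12.6% in B0395.3. No glia marker was at 0 in all libraries.

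Excretory, germ line and sperm markers completed the lists. Excretory markers summed to 85.1 to 92.1 CPM in L4440, 103 to 106 CPM in B0395.3 and 69.0 to 82.1 CPM in H28O16.1. aqp-8, a water channel of the excretory canal, rose under B0395.3 RNAi (log2 fold change 0.91, SE 0.11, adjusted p = 2.99e-05). Of the 10 markers, 2 rose and 3 fell in H28O16.1, and 3 rose in B0395.3 with the other 7 not called. That is 20.0% higher and 30.0% lower in H28O16.1, beside 26.3% and 31.2% of all genes tested. In B0395.3 30.0% were higher, beside 12.6%. Oocyte and germ line markers summed to 19275 to 20050.5 CPM in L4440, 17880 to 18527 CPM in B0395.3 and 16327 to 16905 CPM in H28O16.1. Among those 16 genes, 2 rose and 12 fell in H28O16.1, led by oma-2 (log2 fold change -0.77, SE 0.030, adjusted p = 2.95e-10), and 7 fell in B0395.3 with the other 9 not called. Sperm markers summed to 6.40 to 7.08 CPM in L4440, 6.13 to 6.36 CPM in B0395.3 and 9.88 to 10.7 CPM in H28O16.1. The rise of that sum lay in spe-41 (log2 fold change 1.96, SE 0.11, adjusted p = 1.15e-08), whereas fer-1 fell (log2 fold change -1.22, SE 0.15, adjusted p = 1.19e-05). The part of these tissue markers in the values of ptr-2, wrt-10 and the other members was not tested.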

How the data were processed

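Libraries of poly(A) RNA without strand marks were made with the TruSeq RNA v2 kit, per the labels' protocols. The authors deposited raw counts per gene for all 9 libraries; WBcel235 is the build, and featureCounts 1.4.6-p4, STAR 2.4.1d and bcl2fastq 1.8.4 the tools, per the submitters' processing notes, and how shared reads were counted is not stated there. The authors also deposited RPKM, but their library totals run down the genes in a cycle, so that 11.1% of the deposited values were divided by their own total (checked on 3629 genes); RPKM were therefore rebuilt from counts, own totals and exon lengths of the Ensembl 115 annotation, and the deposited RPKM were used for that check alone. Of 46748 gene IDs, 299 were not in that annotation and held 0.155% to 0.179% of a library's counts.

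Counts were filtered with filterByExpr (minimum count 10), scaled by TMM and fitted over all 9 libraries with edgeR 4.0.16 in R 4.3.3. Each pair of groups was compared by a two-sided quasi-likelihood F-test with Benjamini-Hochberg adjustment over 14622 genes. The SE is the log2 fold change divided by the square root of F, and the biological coefficient of variation was 4.64%. Replicates are numbered in the order of their records, and no libraries were paired. Since the smallest p of an exact permutation test is 0.1 for groups of 3 and 3, that test was not run on single members.

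DESeq2 1.42.0, limma 3.58.1 on log2(RPKM + 0.1) and log2(RPKM + 1), other scalings and filters, the 6 libraries compared alone and the omission of each library were tried, which gave 18 alternatives per comparison. Tested on simulated data with 200 changed genes among 14622, the H28O16.1 comparison found 57.8% of 1.5-fold, 82.9% of 2-fold and 100% of 4-fold changes and made 13 false calls among 14422 unchanged genes. For the B0395.3 comparison these were 57.8%, 85.7%, 100% and 9. Far more genes were called in the data, 8417 and 3976 of the 14622 tested, than were changed in the simulation. The shares found were not computed on the members, whose median was 1.45 CPM beside 9.93 CPM over all genes tested. They need not hold for the members.

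The gene families and the 10 companion lists were chosen with earlier results of these data known. Within the families, members were taken by gene name alone. Named members are, per family, comparison and direction, up to 4 called genes of the smallest p with a mean of at least 1 CPM, the 3 highest per length in L4440, and from each companion list up to 3 called genes per comparison. Other genes named were chosen after their values were seen.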

Additional observations from a re-analysis of the deposited data

How the results depend on the processing

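No call of a member changed direction under any of the 18 alternatives. Of H28O16.1 against L4440, 3 of 12 lower and 7 of 8 higher calls held under all 18. The lower calls of grl-7, wrt-2 and wrt-4 held wherever these genes were tested, which was in fewer alternatives because they fell below a filter. For B0395.3 against L4440, 11 of 15 lower calls held under all 18 and 0 of 4 higher ones, grl-8 wherever it was tested. For H28O16.1 against B0395.3 it was 5 of 14 lower and 15 of 19 higher calls, and grd-10, grl-7, grl-8, wrt-2, wrt-4 and grl-22 held wherever they were tested. With no filter on low counts, 13 members were called higher in H28O16.1 than in L4440, beside 4239 of the 24625 genes tested in that fit. With a filter of at least 1 CPM in 3 libraries, 6 members were called lower in H28O16.1 than in L4440 and 5 lower than in B0395.3, since fewer low members were tested. Over all 11850 genes tested in that fit, these numbers were 4070 and 4153. Leaving out each library in turn gave 7 to 13 higher and 9 to 19 lower members in H28O16.1 against L4440, 1 to 4 higher and 12 to 17 lower in B0395.3 against L4440, and 17 to 20 higher and 11 to 17 lower in H28O16.1 against B0395.3. Those fits tested 14840 to 14923 genes. Over all of these, the first comparison gave 3525 to 3929 higher and 4172 to 4722 lower. The second gave 1297 to 2409 and 1646 to 2656, and the third 4047 to 4541 and 4328 to 4800. The 1 higher call left for B0395.3 without L4440 replicate 3 compares with 4 in the full set, and 2 were left without B0395.3 replicate 1, 2 or 3. The log2 fold change of mup-4 in H28O16.1 against L4440, not called in the full set, ranged from -0.27 without H28O16.1 replicate 3 (adjusted p = 0.000304) to 0.16 without replicate 1, and that of nas-37 in H28O16.1 against B0395.3 from -0.19 without replicate 3 (adjusted p = 0.0488) to 0.13 without replicate 1; the cause was not tested. For the other single genes named, 3477 recomputed values kept direction and side of the threshold, 31 changed sign while not called in either fit, 96 lost a call and 51 gained one. Scaling moved the median of all genes by at most 0.061 on the log2 scale. No paired analysis was run, since the labels number no replicates and name no pairing. The replicate numbers used here follow record order, and whether libraries of neighbouring records share a batch is not stated in the labels. Depth limits the members below 1 CPM most: 1 to 3 reads decide values such as those of wrt-4 and grl-7 in H28O16.1.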
